A study of Mus musculus with 8 samples.

Results

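The elements examined here were the open chromatin regions at Eomes and Tbr1, a pair of T-box transcription factor genes, in the embryonic mouse forebrain. They were chosen by position as all merged peaks lying within 50 kb of either gene body, which gave 26 elements for Eomes and 15 for Tbr1, or 41 of the 292532 merged regions of the series. Added to them were the gene-level counts of both genes, of 21938 protein-coding genes, and the counts of the EOMES and TBR1 motifs, of 579 motifs. Single-nucleus ATAC-seq, in which a transposase cuts and tags accessible DNA, had been run on 39253 nuclei from the cortex (CTX) and from the medial, lateral and caudal ganglionic eminences (MGE, LGE and CGE, jointly GE), with 2 samples per region and no treatment.

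All 8 samples came from wild-type mice. The 6 GE samples and CTX replicate 1 were labelled E12.5, and CTX replicate 2 was labelled E14.5. In the cortical group, age, library and replicate therefore cannot be told apart. The strain, the number of embryos per sample and whether the samples of a region came from separate animals are not given in the labels, so the p-values below measure the spread between these samples, which may be technical.

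Eomes (also called Tbr2) and Tbr1 encode related DNA-binding proteins that share the T-box domain. In the developing cortex, Eomes marks intermediate progenitors, the dividing cells between radial glia and neurons of the glutamatergic lineage. Tbr1 is turned on in the early postmitotic glutamatergic neurons that follow, and it is needed for the identity of deep-layer neurons. The ganglionic eminences produce mainly GABAergic neurons. Accessible DNA is not the same as transcription, since a promoter can be open where its gene is silent.

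Eomes lies at chr9:118478212-118486132 on the plus strand of GRCm38. Its 50 kb surroundings also held the start of Golga4, a Golgi protein gene, and the antisense non-coding gene Gm33460, which overlaps the Eomes 3′ end. Tbr1 lies at chr2:61802930-61814114 on the plus strand, directly after Psmd14, a proteasome subunit gene that ends upstream of it and fills most of the upstream window. The start of Psmd14 lay outside the window. Of the Eomes elements, 3 overlapped Eomes and 23 did not. Of the Tbr1 elements, 1 overlapped Tbr1 and also touched the Psmd14 3′ end, 10 lay over Psmd14 alone, and 4 lay over neither gene.

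The promoters are printed to show the sequence under the main peak of each gene, and 3 distal windows because they carry the differences between samples described below. The promoters span 250 bases before to 50 after the RefSeq start on GRCm38.p6. The distal windows are the central 300 bases of the element 22.6 kb upstream of Eomes and of the elements 37.9 kb and 7.4 kb upstream of Tbr1, given on the plus strand of GRCm38. Capitals mark matches on either strand to 3 motifs: AGGTGNNA, the core bound by T-box proteins, TAATTA, a homeodomain motif that reads the same on both strands, and CAGATG, an E-box of the kind bound by neurogenic bHLH factors. No matches overlapped each other in these windows.
Eomes promoter (chr9:118477939-118478238): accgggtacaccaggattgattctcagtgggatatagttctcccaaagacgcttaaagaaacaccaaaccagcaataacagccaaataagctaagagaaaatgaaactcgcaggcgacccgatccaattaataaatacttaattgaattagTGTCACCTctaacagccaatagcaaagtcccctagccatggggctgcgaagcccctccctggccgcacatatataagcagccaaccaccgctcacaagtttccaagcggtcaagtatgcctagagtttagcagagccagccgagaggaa
Tbr1 promoter (chr2:61804203-61804502): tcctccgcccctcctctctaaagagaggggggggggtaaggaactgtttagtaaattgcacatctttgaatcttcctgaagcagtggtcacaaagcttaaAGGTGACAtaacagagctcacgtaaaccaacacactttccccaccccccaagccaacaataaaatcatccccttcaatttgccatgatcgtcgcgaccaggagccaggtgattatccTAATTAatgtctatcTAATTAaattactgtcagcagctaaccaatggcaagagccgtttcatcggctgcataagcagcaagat
Eomes, 22.6 kb upstream (chr9:118455464-118455763): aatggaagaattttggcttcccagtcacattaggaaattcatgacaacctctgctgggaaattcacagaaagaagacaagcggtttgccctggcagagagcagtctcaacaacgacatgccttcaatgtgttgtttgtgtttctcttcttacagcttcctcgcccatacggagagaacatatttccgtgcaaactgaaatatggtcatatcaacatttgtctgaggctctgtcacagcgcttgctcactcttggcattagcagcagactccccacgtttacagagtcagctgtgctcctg
Tbr1, 37.9 kb upstream (chr2:61764897-61765196): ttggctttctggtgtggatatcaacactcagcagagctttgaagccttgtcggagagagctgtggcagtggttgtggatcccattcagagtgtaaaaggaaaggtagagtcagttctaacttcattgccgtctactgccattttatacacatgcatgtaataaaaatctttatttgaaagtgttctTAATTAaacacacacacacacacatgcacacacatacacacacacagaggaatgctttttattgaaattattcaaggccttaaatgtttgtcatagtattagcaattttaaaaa
Tbr1, 7.4 kb upstream (chr2:61795430-61795729): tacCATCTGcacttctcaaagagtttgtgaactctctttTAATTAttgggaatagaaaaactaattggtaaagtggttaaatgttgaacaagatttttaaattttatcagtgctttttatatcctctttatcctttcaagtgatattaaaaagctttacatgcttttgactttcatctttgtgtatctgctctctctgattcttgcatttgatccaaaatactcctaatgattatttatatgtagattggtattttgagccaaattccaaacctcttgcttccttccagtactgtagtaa

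Each promoter held 1 match to the T-box core, and both matches spell the same 8 letters, AGGTGACA. In Eomes they lie on the minus strand with their leftmost base 99 bases before the start, and in Tbr1 on the plus strand, 150 bases before it. AGGTGNNA occurred in 15.96% of the 32851 RefSeq promoters of this length. AGGTGACA, looked up after it had been seen in both, occurred in 1.93% of them. The Tbr1 promoter also held 2 matches to TAATTA, which was present in 5.29% of promoters, and neither promoter held CAGATG. None of the 3 printed distal windows had a match to the T-box core, which 16.3% of 292527 central windows of merged regions contained. TAATTA was found once in each of both Tbr1 windows and in 14.0% of all central windows. CAGATG was found once, in the window 7.4 kb upstream of Tbr1, and in 27.8% of all central windows. A match describes letters and not binding.

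The samples held 3465 to 6845 nuclei and 77387940 to 138873845 counts in peaks, with medians of 14584 to 22209.5 counts per nucleus. CTX replicate 1 was the most deeply sequenced sample, and between 15 and 56 barcodes were shared by any 2 libraries. The cortical samples differed in composition. Accessibility at Neurod2, a neuronal bHLH gene of the glutamatergic lineage, was 158 CPM in CTX replicate 1, where CPM stands for counts scaled to the same total in every sample. It was 16.9 CPM in CTX replicate 2, within the 11.1 to 21.2 CPM of the GE samples. Neurod6, a further gene of that family, had 126 CPM in the former and 43.0 CPM in the latter, against 1.08 to 11.96 CPM in the GE samples. Of the cortical samples, the one with the earlier label thus had the higher accessibility at these neuronal genes. The age labels were used as given, and whether they could be exchanged between the cortical samples is unresolved. For the elements, genes and motifs of Eomes and Tbr1, the test of CTX against GE is therefore also given without CTX replicate 1. That setting compares a cortical library labelled E14.5 with GE libraries all labelled E12.5, so region and age cannot be told apart in it. No call made or kept there is read as a difference of region alone.

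The peaks were called separately in each sample, so an element can be absent from a sample because no peak was called there, in which case it has no count rather than a measured 0. CTX replicates 1 and 2 had peaks in 16 and 14 of the 26 Eomes elements. The GE samples had between 4 in MGE replicate 1 and 16 in CGE replicate 2, in which 105456 and 182638 peaks had been called in all. Of the Tbr1 elements, 9 and 8 of 15 had a peak in the cortical samples and between 2 and 8 in the GE samples. Of the 26 Eomes elements, 4 had a peak in all 8 samples, 10 in 2 to 7, and 12 in a single sample. Of the 15 Tbr1 elements these numbers were 2, 6 and 7. Of all merged regions, 23.3% had a peak in all 8 samples and 36.3% in a single one. Thus 6 of 41 elements could be tested, and 1 element at each locus had a peak in both cortical and no GE sample, a pattern of 3.14% of all merged regions.

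The libraries also differed by replicate number. Between 9.54 and 10.4% of the entries of replicate 1 samples were odd numbers, against 5.17 to 5.85% in replicate 2 samples. CTX was therefore also compared with the mean of the 3 GE samples of the same number, a description with no test that was added after the data had been seen. Among replicate 2 samples, region and labelled age cannot be told apart in it.

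**Figure D1:**
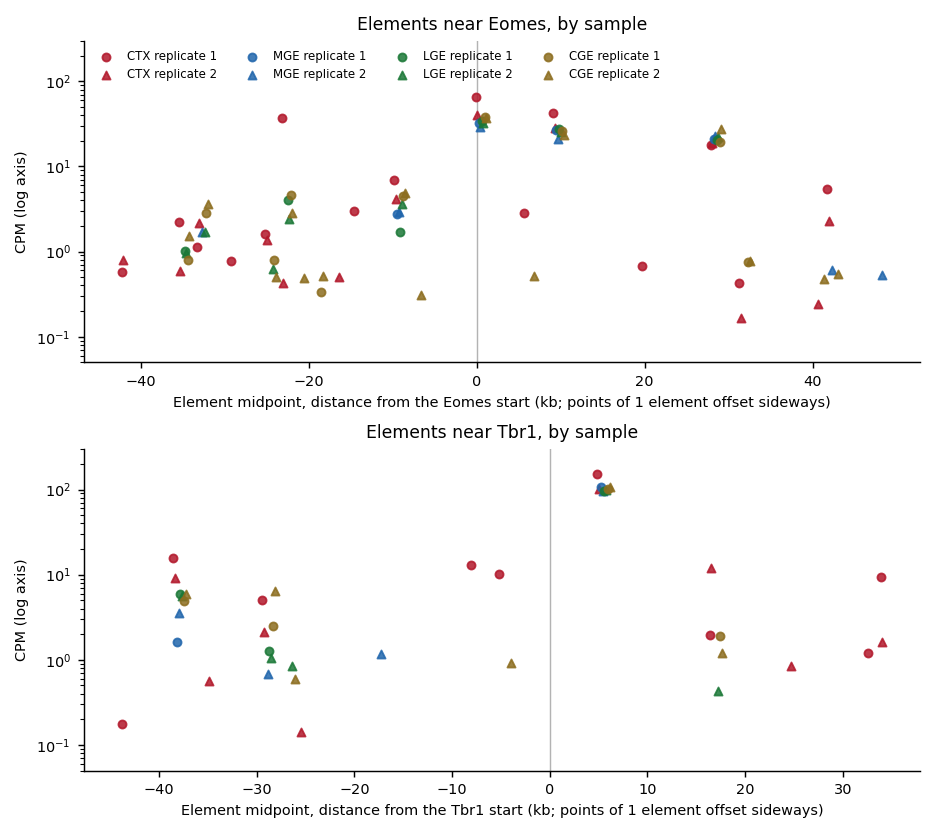
CPM (log axis) of each element near Eomes (top) and Tbr1 (bottom) against the distance of its midpoint from the gene start in kb, with 1 point per sample that had at least 100 bp of peak there, coloured by region, circles for replicate 1 and triangles for replicate 2. The elements over the starts of both genes stand highest of their windows in every sample, while the point at 37.22 CPM, 22.6 kb upstream of Eomes, belongs to CTX replicate 1 and the other samples drawn there are at 4.67 CPM or lower.

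The element over the Eomes start (chr9:118474885-118482556), which covers the promoter and the first part of the gene, was more accessible in CTX than in GE. Scaled to the total of the 68274 regions that had a peak in all samples, it stood at 64.96 CPM in CTX replicate 1, against 40.21 CPM in CTX replicate 2. The values were 32.14 and 29.20 CPM in MGE replicates 1 and 2, 34.27 and 32.36 in LGE, and 38.20 and 37.58 in CGE. Both cortical samples were above all GE samples, although CTX replicate 2 exceeded CGE replicate 1 only narrowly. The regions used for scaling held 77.8 and 87.0% of the counts of CTX replicates 1 and 2, and 89.7 to 95.1% in GE. This raises the CTX values beside a scaling to all counts, so the narrow separation depends on the scaling. Such a separation was seen in 10.8% of the regions tested. The difference passed the test, the log2 fold being 0.69 with an SE of 0.17 (adjusted p = 0.0391, edgeR quasi-likelihood test with Benjamini-Hochberg adjustment over all 68274 regions). It was the 1 of 4 tested Eomes elements called, against 14.9% of all regions called and 9.49% called higher in CTX. The call was lost when any of the samples other than CTX replicate 2 was left out. Over the 8 fits with a sample left out the log2 fold was 0.34 to 0.99, lowest without CTX replicate 1. Each of these fits leaves 1 sample in a group, so a lost call alone does not show a smaller difference. The log2 ratio was 0.90 among replicate 1 samples and 0.28 among replicate 2 samples. The peaks of the 8 samples covered between 3596 and 7228 bp of this element, most in CTX replicate 1. With an offset for covered length, a setting that called 9.17% of regions, the log2 fold was 0.24 (adjusted p = 0.562, edgeR).

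The element over the Eomes 3′ end (chr9:118485529-118490330), which also holds the Gm33460 start, followed a similar order without passing the test. The cortical replicates had 42.91 and 27.97 CPM, and the GE samples ranged from 20.92 CPM in MGE replicate 2 to 27.52 in LGE replicate 1. CTX replicate 2 was separated from the highest GE sample by less than 1 CPM, a gap that likewise depends on the scaling. The log2 fold was 0.57 (SE 0.18, adjusted p = 0.0868), and DESeq2, which called 23.1% of all regions, gave an adjusted p of 0.0332. Without CTX replicate 1 the log2 fold was 0.26 (adjusted p = 0.382), and without CTX replicate 2, which leaves only samples labelled E12.5, it was 0.83 and passed the test (adjusted p = 0.0113), in a setting that called 26.3% of regions. The element 9.2 kb upstream of the Eomes start (chr9:118468143-118469863) had 6.86 and 4.15 CPM in CTX and 1.71 to 4.86 CPM in GE, so that the groups overlapped (log2 fold 0.80, SE 0.35, adjusted p = 0.192, and 0.43 without CTX replicate 1). The element over the Golga4 start, 28.5 kb downstream, had 17.72 and 18.87 CPM in CTX and 19.51 to 27.55 in GE, and the log2 fold was -0.24 (SE 0.19, adjusted p = 0.507), or -0.15 without CTX replicate 1.

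The largest difference between samples at the Eomes locus lay in an intergenic element 22.6 kb upstream (chr9:118454957-118456269), which had no peak in MGE replicate 1 and was not tested. CTX replicate 1 had 37.22 CPM there and CTX replicate 2 had 0.43. Peaks covered 1214 bp of it in CTX replicate 1, 283 bp in CTX replicate 2, and 699 to 1219 bp in LGE and CGE. Most of the element was thus not counted in CTX replicate 2. Per covered kb, CTX replicates 1 and 2 had 30.7 and 1.53 CPM, and LGE and CGE had 2.36 to 5.85. The eminences had 4.09 and 2.45 CPM in LGE replicates 1 and 2 and 4.67 and 2.87 in CGE. MGE replicate 2 was listed at 0 with 9 bp of peak. A count in this element was found in 1175 of 4108 nuclei of CTX replicate 1 (28.6%, 95% exact Clopper-Pearson interval 27.2 to 30.01%) and in 24 of 4946 nuclei of CTX replicate 2 (0.485%, 0.311 to 0.721%). The share was 1.78 to 3.81% in the LGE and CGE samples. After each nucleus was thinned to 5000 counts, the shares in CTX replicates 1 and 2 were 11.96 and 0.213%, against 0.850 to 1.73% in LGE and CGE. The LGE and CGE samples thus lay between the cortical samples. With 9 bp of peak, the 0 of MGE replicate 2 has no place in this order. Intervals cover counting error only.

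The remaining Eomes elements were weaker. The element 32.7 kb upstream was at 1.14 and 2.17 CPM in the cortex and up to 3.65 CPM in CGE replicate 2, with no peak in MGE replicate 1 or LGE replicate 1. An element in a Golga4 intron 42.4 kb downstream, singled out after its values were seen, was at 5.43 and 2.31 CPM in the cortical samples. In MGE replicate 2 it was at 0.60 CPM and in CGE replicate 2 at 0.55. It had no peak in the other GE samples. The elements not named here had at most 3.00 CPM in any sample.

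At the Tbr1 locus the broad element over the gene was open in all samples. It spanned 16441 bp (chr2:61800206-61816646), from the Psmd14 3′ end across Tbr1, with 151.15 CPM in CTX replicate 1 against 102.22 CPM in CTX replicate 2. The values were 106.63 and 96.08 CPM in MGE, 94.92 and 99.50 in LGE, and 102.43 and 107.59 in CGE. CTX replicate 1 stood above all others and CTX replicate 2 lay within the GE range. The log2 fold was 0.38 (SE 0.16, adjusted p = 0.165), and 0.11 without CTX replicate 1. Leaving out CTX replicate 2 instead gave 0.63 (adjusted p = 0.0197).

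An element 37.9 kb upstream of Tbr1, over an exon of Psmd14 (chr2:61763911-61766182), was the other element called in CTX against GE. CTX replicate 1 had 15.57 CPM, and 9.21 CPM was found in CTX replicate 2. The GE values were 1.64 and 3.52 CPM in MGE, 5.90 and 5.55 in LGE, and 4.95 and 5.89 in CGE. Both cortical samples were above every GE sample, and MGE held the lowest values. The log2 fold was 1.58 (SE 0.33, adjusted p = 0.0209), and it remained called when covered length was taken as an offset (0.98, adjusted p = 0.0243), a setting that called 9.17% of regions. It was also called without CTX replicate 1 (1.196, adjusted p = 0.0391), a setting that called 24.2% of regions, and the log2 ratio was 1.90 among replicate 1 samples and 0.89 among replicate 2 samples. It was lost when any LGE or CGE sample was left out, with log2 folds of 1.54 to 1.64 and adjusted p = 0.0558 to 0.0626. The calls over all regions were 4274 to 5812 in these settings, against 10160 with all samples. When all regions with a peak in at least 2 samples were tested, of which 5.97% were called, its adjusted p was 0.0552, and the Tbr1 element 34.5 kb downstream was called instead. That element entered only through its peaks in CTX and has no counted value in GE, so nothing is read from its call. None of the 13 Eomes elements tested in that setting was called. For MGE against LGE the log2 fold was -1.13 (adjusted p = 0.316, SE 0.44). Whether this element acts on Tbr1, on Psmd14 or on neither cannot be read from accessibility.

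**Figure D2:**
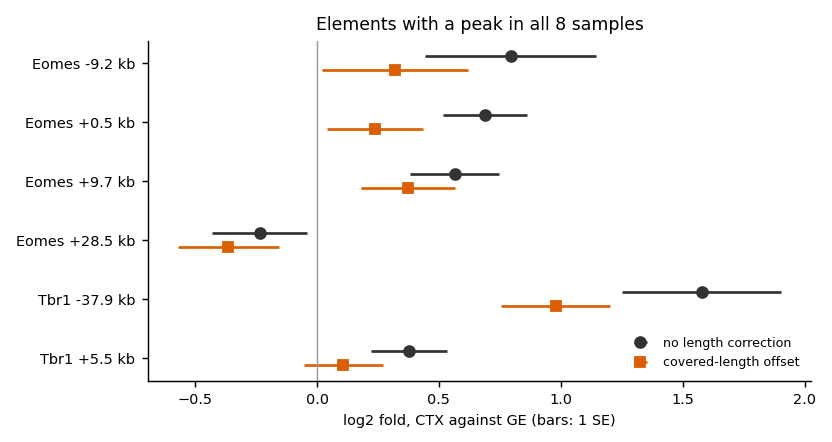
Log2 fold of CTX against GE for the 6 elements with a peak in all 8 samples, labelled by gene and by distance of the midpoint from its start, without a length correction (circles) and with an offset for the length covered by peaks (squares), with bars of 1 SE. The element 37.9 kb upstream of Tbr1 stays well above 0 in both, at 1.58 and 0.98, while that over the Eomes start moves from 0.69 to 0.24.

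Other Tbr1 elements had peaks in part of the samples and differed between the cortical libraries in both directions. Those 7.4, 4.6 and 34.5 kb away from the start were singled out after their values were seen. The element 7.4 kb upstream, in a Psmd14 intron (chr2:61794515-61796644), had 12.96 CPM in CTX replicate 1 and no peak in CTX replicate 2. It was otherwise seen in CGE replicate 2, with 20 bp of peak and a count in 1 of 4530 nuclei. The element 4.6 kb upstream (chr2:61797800-61798912), also within Psmd14 and over the annotated rRNA gene Gm25966, stood at 10.05 CPM in CTX replicate 1, with 0.92 CPM in CGE replicate 2. The intergenic element 34.5 kb downstream (chr2:61837075-61837882) had 9.46 CPM in CTX replicate 1, 1.63 CPM in CTX replicate 2 and no GE peak.

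The intergenic element 17.0 kb downstream (chr2:61819212-61820560) had the opposite order, with 11.92 CPM in CTX replicate 2 but 1.97 CPM in the first replicate. Its values in GE were 0.43 CPM in LGE replicate 2, and 1.92 and 1.21 in CGE replicates 1 and 2, with no peak in the other 3 samples. The element 28.8 kb upstream, in a Psmd14 intron, was highest in CGE replicate 2, at 6.51 CPM, followed by CTX replicate 1 at 5.04 and CGE replicate 1 at 2.49. Its groups overlapped. The elements not named here had at most 1.21 CPM in any sample.

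No tested element of either locus was called in a comparison between eminences by edgeR. These comparisons called 0.694% of regions for MGE against LGE, 0.325% for MGE against CGE and 0% for LGE against CGE. These shares depended on the libraries fitted. With the GE samples alone they were 10.6, 9.4 and 0.00293%, and with any single GE sample left out no region was called. DESeq2 called 7.4, 6.61 and 0.611% of regions and none of the 6 elements. No element was called with the GE samples alone either, where the element 37.9 kb upstream of Tbr1 had an adjusted p of 0.0853 in MGE against LGE. At an unadjusted p under 0.05 there was 1 of 6, the element 37.9 kb upstream of Tbr1 in MGE against LGE, where 13.5% of regions had such a p. For MGE against CGE and LGE against CGE there was none of 6, against 12.9% and 4.78% of regions.

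Summed over all peaks on the gene body and the 2000 bp upstream, the Eomes count was higher in CTX. Scaled to all counts assigned to genes, 108 CPM was found in CTX replicate 1 and 70.3 CPM in the second. The GE values were 32.7 and 29.8 CPM in MGE, 36.9 and 59.0 in LGE, and 40.5 and 62.1 in CGE. Both cortical samples were above every GE sample, and replicate 2 of LGE and CGE came nearest to them. These counts do not hold the same elements in every sample. In MGE replicate 2, LGE replicate 1 and CGE replicate 1 they equalled the 2040, 4034 and 3049 counts of the element over the start. The element over the 3′ end, which had a peak in every sample, entered only in both CTX samples, LGE replicate 2 and CGE replicate 2. The fold and ratios below therefore also depend on where peaks ended, and that part was not tested. The log2 fold was 1.18 (SE 0.25, adjusted p = 0.0471, over 17357 genes), against 4.51% of genes called and 3.65% called higher in CTX. The call was lost without CTX replicate 1, either MGE sample, LGE replicate 1 or either CGE sample. Over the 8 fits with a sample left out the log2 fold was 0.77 to 1.498, lowest without CTX replicate 1. A lost call with 1 sample in a group does not by itself show a smaller difference. The log2 ratio was 1.55 among replicate 1 samples and 0.48 among replicate 2 samples, and a fit with a term for the replicate number did not call Eomes (adjusted p = 0.0823).

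The length called as peak differed between samples and moved with this result. The counted Eomes peaks covered 13.2 and 9.72 kb in CTX, and 3.60 to 10.8 kb in GE. Per covered kb, the mean was 7.71 ± 0.68 CPM in CTX (SD, n = 2) and 7.79 ± 2.09 in GE (SD, n = 6). With covered length as an offset, the log2 fold was 0.10 (SE 0.24, adjusted p = 0.892, edgeR). That setting called 0.0615% of all genes, against 4.51% without the offset. Covered length comes from the same peaks as the counts, so the offset can take out part of a difference in accessibility. Little is therefore read from the lost call. Counting only the peaks near a start site gave 0.78 (adjusted p = 0.136).

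Tbr1 at gene level had 147 and 84.3 CPM in CTX, 80.1 and 98.0 in MGE, 76.3 and 102.9 in LGE, and 82.2 and 108.8 in CGE. CTX replicate 2 lay in the lower part of the GE range, and the groups overlapped. Its gene count held 6417 of the 8026 counts of the broad element over Tbr1, since part of that element lay outside the counted stretch. Replicate 1 of MGE, LGE and CGE also lost counts in this way, and the other samples did not. Over the whole element CTX replicate 2 had 102.22 CPM, against 94.92 to 107.59 in GE. The log2 fold was 0.46 (SE 0.25, adjusted p = 0.403), and -0.07 without CTX replicate 1. The log2 ratio was 0.89 among replicate 1 samples and -0.29 among replicate 2 samples. Over the whole element these ratios were 0.58 and 0.02. In CTX replicate 1 a single peak of 16.3 kb held all Tbr1 counts and was shared with Psmd14, so these counts are assigned to both genes. Psmd14 had 251 and 61.0 CPM in CTX and 32.4 to 53.5 in GE. It was called higher in CTX by edgeR (log2 fold 1.99, adjusted p = 0.0471), as were 3.65% of genes. Its peaks covered 32.2 kb in CTX replicate 1 and 2.51 to 8.76 kb in the other samples. Neither member was called in any comparison between eminences by edgeR, where 0.0864% of genes were called for MGE against LGE, 0.0864% for MGE against CGE and 0% for LGE against CGE. Neither had an unadjusted p under 0.05 there, against 6, 6.6 and 1.99% of genes. DESeq2 called 2.73, 2.47 and 0.576% of genes in these comparisons and neither member. Per covered kb, Tbr1 had 8.46 ± 0.79 CPM in CTX and 8.21 ± 1.06 in GE, and Eomes and Tbr1 were thus at similar levels per length of open chromatin.

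**Figure D3:**
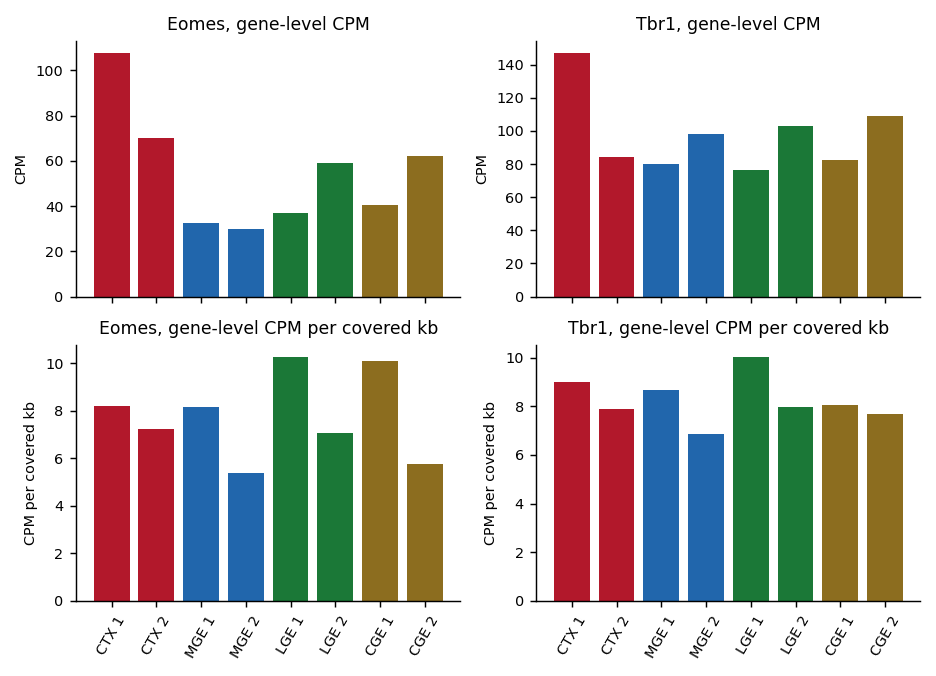
Gene-level accessibility of Eomes (left) and Tbr1 (right) in each of the 8 samples, numbered by replicate, as CPM (top) and as CPM per kb of peak (bottom), with 1 bar per sample starting at 0. In CPM both CTX bars of Eomes exceed those of the GE samples, and per covered kb they lie within the GE range of 5.39 to 10.3.

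The share of nuclei with a count also placed CTX highest for Eomes. It uses the same peaks as the gene count, so it carries the same difference in peak length and is no separate support. The element over the Eomes 3′ end entered it only in both CTX samples, LGE replicate 2 and CGE replicate 2. With each nucleus thinned to 5000 counts, an Eomes count was expected in 26.3 and 20.7% of nuclei of CTX replicates 1 and 2. In GE the shares were 10.6 and 10.0% in MGE, 11.3 and 18.9% in LGE, and 12.2 and 18.7% in CGE. The mean of CTX exceeded that of GE by 9.87 percentage points, and both cortical samples were above all GE samples (exact two-sided permutation test, p = 0.0357, the smallest that 28 choices of 2 of 8 samples allow). At the element over the Eomes start alone, which had a peak in all samples, the thinned shares were 16.9 and 12.8% in CTX and 10.0 to 12.2% in GE, so that the gap was smaller. For Tbr1 the shares were 36.9 and 23.7% in CTX and 22.3 to 30.4% in GE, with a difference of 4.39 points (exact permutation p = 0.357), or -2.21 points without CTX replicate 1. Over the whole element at Tbr1 they were 36.9 and 28.4% in CTX and 27.7 to 30.4% in GE. These were the only 2 such tests, and their p-values are not adjusted. Thinning left out between 102 and 760 nuclei per sample. Without thinning, Eomes had a count in 50.3 and 36.6% of cortical nuclei and in 20.7 to 34.2% of GE nuclei, and Tbr1 in 63.3 and 40.4% and in 37.3 to 50.1%. Endothelial-like nuclei, which should lack both genes, had thinned shares of 14.4 to 17.4% for Eomes and 18.3 to 34.9% for Tbr1, at median depths of 12171.5 to 40761 counts. For Eomes, the shares of MGE, LGE replicate 1 and CGE replicate 1 were below those of Endothelial-like nuclei. A share over a whole sample averages its nuclei, so these shares are not read as background. In LGE replicate 1 and CGE replicate 1, cluster 4 of the clustering described below had 70.4 and 59.3 CPM at Eomes. Their other clusters of at least 100 nuclei had at most 41.1 and 39.4 CPM. The shares of LGE replicate 2, CGE replicate 2 and both cortical samples were above those of Endothelial-like nuclei. The Eomes peaks of these 4 samples also covered more length, 8.35 to 13.2 kb, than the 3.60 to 5.53 kb of the other samples. At the element over the Eomes start, the shares of LGE replicate 2 and CGE replicate 2 were 11.2 and 12.1% and those of the cortical samples 16.9 and 12.8%. The Endothelial-like shares there were 8.31, 14.4 and 17.4%, so that the 4 samples lay within their range, and no expression is read from the shares of nuclei at this element. For Tbr1, the value of 34.9% came from 58 Endothelial-like nuclei of MGE replicate 1, and the other 2 samples, LGE replicate 1 and CTX replicate 2, had 21.8 and 18.3%. The GE shares of Tbr1, and that of CTX replicate 2, thus lay between these values. Without the 5% of nuclei with the most counts, too few Endothelial-like nuclei of MGE replicate 1 were left to be counted. The shares of the other 2 samples were then 18.1 and 19.7%, below the 21.99 to 30.03% of GE and the 23.4% of CTX replicate 2. Whether the Tbr1 shares exceed background is therefore not settled, and no expression is read from them. In tissue of mixed cells, more nuclei of a type and more accessibility per nucleus cannot be told apart from these sample values.

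To see which nuclei carried the counts, all nuclei were clustered on the common regions without those near Eomes or Tbr1, which gave 14 clusters. Clusters were named from marker genes other than the members, and a cluster against the rest is a description with no test. The cortical libraries fell into separate clusters, so cluster and library are largely the same in CTX. Most of CTX replicate 1 lay in clusters 9 and 11, with 2380 and 1531 of its 4108 nuclei, both Glutamatergic-like. CTX replicate 2 was spread over cluster 6 (3561 nuclei), cluster 4 (542), cluster 13 (541) and the Endothelial-like cluster 12 (272). Clusters 4, 6 and 13 met no name. The leading genes of cluster 4 included Slc17a6, a vesicular glutamate transporter, and the neuronal bHLH genes Neurod4 and Nhlh1. Beside them stood Samd3, 1700012A03Rik, Gjd2, Rgs21, Krtap16-1, Mmrn1 and Spata9. Of the Glutamatergic-like list, 2 of 8 markers were raised in cluster 4, fewer than the 3 that a name needed, with a mean log2 difference of 0.48.

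Within CTX replicate 1, Eomes and Tbr1 accessibility took opposite orders. Cluster 9 had 121 CPM at Eomes and 139 at Tbr1. Cluster 11 had 74.0 CPM at Eomes and 199 at Tbr1. The same held for single elements, since the element over the Eomes start had 72.4 CPM in cluster 9 and 39.1 in cluster 11. The element 22.6 kb upstream of Eomes did not follow its gene. It had 24.6 CPM in cluster 9 and 86.2 in cluster 11, and so ran with Tbr1. The Tbr1 elements 7.4 and 4.6 kb upstream took the same order, with 9.7 and 6.6 CPM in cluster 9 and 25.6 and 22.6 CPM in cluster 11. The Tbr1 element 34.5 kb downstream ran the other way, with 11.02 CPM in cluster 9 and 3.8 in cluster 11. The element 37.9 kb upstream had 15.7 and 15.4 CPM.

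A finer clustering, with 21 clusters, placed most of CTX replicate 1 in 3 of them. A progenitor-like cluster of 791 nuclei had 66.0 CPM at Eomes, 77.0 at Tbr1, 0.8 at the element 22.6 kb upstream of Eomes, and 18.9 at the element 34.5 kb downstream of Tbr1. A Glutamatergic-like cluster of 1620 nuclei had 133 CPM at Eomes, 153 at Tbr1, 30.1 at the element 22.6 kb upstream of Eomes and 9.2 at the element 34.5 kb downstream of Tbr1. A further Glutamatergic-like cluster of 1500 nuclei had 71.3 CPM at Eomes, 199 at Tbr1, 87.4 at the element 22.6 kb upstream of Eomes and 3.9 at the element 34.5 kb downstream of Tbr1. Of these 3 clusters, that of 1620 nuclei was highest at Eomes and that of 791 nuclei at the downstream Tbr1 element. The cluster of 1500 nuclei was highest at the Tbr1 gene and the upstream Eomes element. No order of the clusters was computed. Median depth was 39438 counts in the cluster highest at Eomes, against 19244 in the progenitor-like cluster and 17378.5 in the cluster of 1500 nuclei. The part of depth in these differences was not tested. A Glutamatergic-like cluster held 106 nuclei of LGE replicate 2, which had 261 CPM at Tbr1, 74.3 at Eomes and 65.5 at the element 22.6 kb upstream. This was the same combination as in the cluster of 1500 nuclei, in another library. The same cluster held 539 nuclei of CTX replicate 2, which differed from it, with 158 CPM at Eomes, 174 at Tbr1 and 2.7 at the element 22.6 kb upstream. In that library peaks covered only 283 bp of this element, which limits the last value. CTX replicate 2 thus had Glutamatergic-like nuclei at this setting but none among the 14 clusters.

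Cluster 4 held nuclei of 5 samples with at least 100 each, which allows a comparison within samples. At Eomes it had 159 CPM in CTX replicate 2, 70.4 and 119 in LGE replicates 1 and 2, and 59.3 and 97.5 in CGE. The other clusters with at least 100 nuclei in those samples had at most 62.1 CPM in CTX replicate 2, 41.1 and 59.1 in LGE, and 39.4 and 60.4 in CGE. At Tbr1 it had 176 CPM in CTX replicate 2, 132 and 198 in LGE, and 137 and 176 in CGE, against at most 75.9, 69.1, 100.1, 80.8 and 106 CPM in the other clusters of that size. Of the smaller groups in these samples, with 52 to 85 nuclei, cluster 5 of LGE replicate 2 had the most, with 63.3 CPM at Eomes and 126.7 at Tbr1. In all 5 samples both genes were thus most accessible in cluster 4. The Tbr1 element 37.9 kb upstream was at 32.2 CPM there in CTX replicate 2, at 19.2 and 23.9 in LGE, and at 15.3 and 15.99 in CGE, and at most at 8.9 CPM in the other clusters of at least 100 nuclei of these samples. LGE and CGE nuclei of this cluster therefore had more accessibility at both genes and at this Tbr1 element than the GABAergic-like and progenitor-like clusters of that size in the same libraries. This did not hold in CGE for the element 22.6 kb upstream of Eomes, described below. Cluster 4 need not hold the same kind of nuclei in each sample. The Glutamatergic-like cluster of the finer clustering held 539 nuclei of CTX replicate 2, but 12 and 106 of LGE and 10 and 30 of CGE. Its overlap with the 542 cluster 4 nuclei of CTX replicate 2 was not counted, so their values are not taken as separate observations.

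The element 22.6 kb upstream of Eomes also had counts in GABAergic-like nuclei. In clusters 1 and 3 it had at most 2.7 CPM in any sample with at least 100 nuclei there. Cluster 8 had 8.1 and 3.8 CPM there in LGE replicates 1 and 2, and 19.6 and 12.4 in CGE, while at the Eomes gene it had 21.3 and 48.0 CPM in LGE and 25.3 and 41.5 in CGE, the lowest of the clusters in each of these samples. Cluster 4 had 16.5 and 15.3 CPM at the element in LGE replicates 1 and 2, more than cluster 8, and 10.4 and 3.07 in CGE, less than cluster 8. In both LGE samples it was thus the highest cluster of at least 100 nuclei at the element as well as at the gene. In cluster 4 of CTX replicate 2 the element had 2.7 CPM, over 283 bp of peak, beside 159 CPM at the gene. The Tbr1 element 17.0 kb downstream had 14.2 CPM in cluster 6 of CTX replicate 2 and at most 4.1 CPM in any other cluster of 100 or more nuclei in a sample. Cluster 6, the main cluster of CTX replicate 2, had 62.1 CPM at Eomes and 75.9 at Tbr1, near the 57.5 and 63.9 CPM of the Endothelial-like nuclei of that sample.

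**Figure D4:**
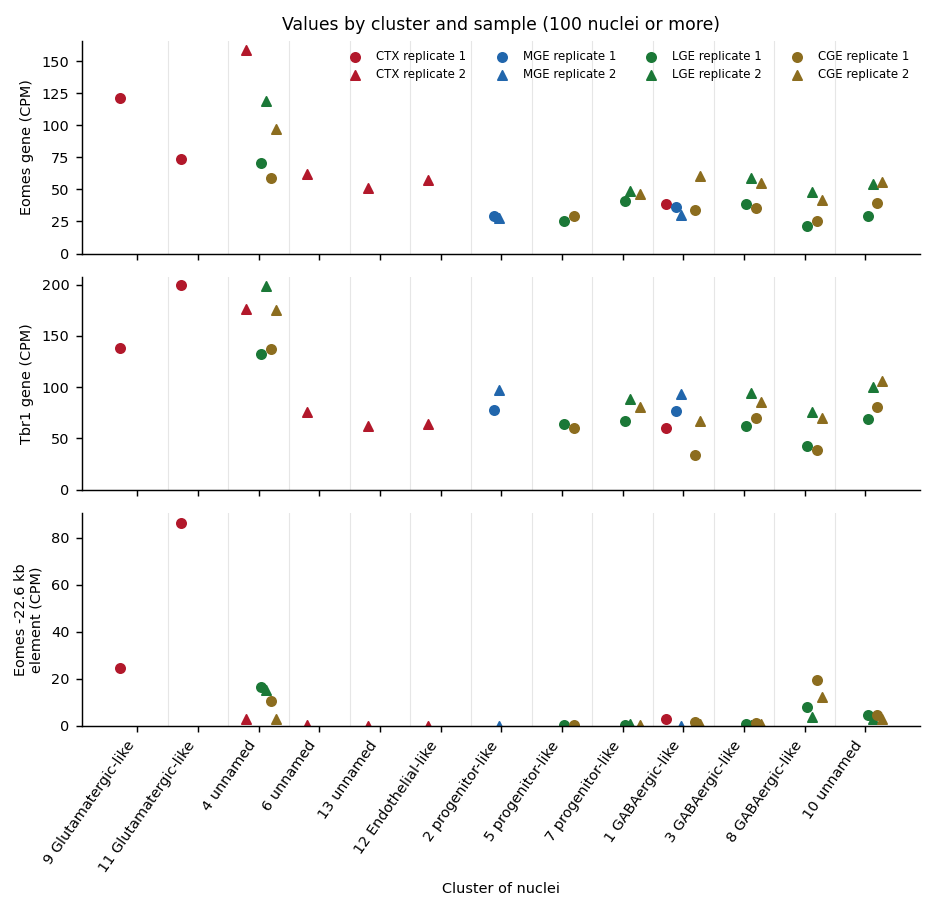
CPM at the Eomes gene (top), the Tbr1 gene (middle) and the element 22.6 kb upstream of Eomes (bottom) in each cluster of nuclei, with 1 point for each sample that had at least 100 nuclei in the cluster and a peak in the feature. Cluster 11, of CTX replicate 1, is highest at the upstream element (86.2 CPM) but not at Eomes, and cluster 4 is high at both genes in all of its 5 samples.

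The other genes of the T-box family and of the glutamatergic lineage were taken from lists of fixed membership. Of 15 other T-box genes, 14 could be tested and 1 was called in CTX against GE, where 4.51% of all genes were called. This was Tbx19, a pituitary T-box gene, with 3.9 and 4.7 CPM in CTX, 1.0 and 3.4 in MGE, and listed at 0 in LGE and CGE, where no peak was called. It thus has no counted value in 4 of the 6 GE samples, and its call was lost with a term for the replicate number, so nothing is read from it. No other T-box gene was called with all samples, and Tbx18 was called without CTX replicate 1 (0.72, adjusted p = 0.0419). The median log2 fold of the 14 was 0.00, as was that of all genes tested. Tbx22 was next by size, at 0.98 (adjusted p = 0.387, SE 0.52).

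Of 7 genes of the progenitor part of the glutamatergic lineage, 4 were called higher in CTX and none lower, against 3.65% of all genes called higher. They were Emx1 and Emx2, homeobox genes of the dorsal telencephalon, with log2 folds of 1.80 (adjusted p = 0.0079, SE 0.19) and 1.203 (adjusted p = 0.0214, SE 0.198), and Lhx2 and Neurog2. Emx1 had 121 and 173 CPM in CTX, and 35.3 to 57.6 in GE. Emx2 had 193 and 357 CPM in CTX, Lhx2 332 and 434, and Neurog2 109 and 154. The median log2 fold was 0.75. Unlike Eomes, these 4 genes were higher in CTX replicate 2 than in CTX replicate 1, and all 4 were called without CTX replicate 1, where 3.72% of all genes were called. Insm1, a zinc finger gene of neurogenic progenitors, had 143 and 55.9 CPM in CTX and 184 to 237 in GE. Its log2 fold was -0.995 (adjusted p = 0.177), and without CTX replicate 1 it was called lower, at -1.91 (adjusted p = 0.0045). Of the 13 genes of the neuronal part, 5 were called higher in CTX and none lower, namely Neurod6, Fezf2, Sox5, Slc17a6 and Slc17a7. Without CTX replicate 1, Neurod6 and Fezf2 remained called and Grin2b, a glutamate receptor gene, was called lower. The median log2 fold was 0.75. For Neurod6 the log2 fold was 4.17 (adjusted p = 0.0081, SE 0.45), and for Neurod2 it was 2.58 (adjusted p = 0.0671, SE 0.63). When covered length was an offset, 1 of these 9 calls was kept, that of Fezf2, and 0.0615% of all genes were called. No gene of the 3 lists was called between eminences. The median log2 fold of the 14 T-box genes was 0.53 both in MGE against LGE, with 12 above 0, and in MGE against CGE, with 13 above 0, while the medians of all genes were 0.00. These comparisons share the MGE samples, of which replicate 1 was the higher at all but Mga, Tbx18, Tbx19 and Tbx22, as at Tbx2 with 154 and 92.6 CPM. Without MGE replicate 1 the medians were 0.28 and 0.24, and without MGE replicate 2 they were 0.63 and 0.64. With covered length as an offset they were -0.12 and 0.20 over the 12 genes that could be fitted, with 3 and 9 above 0.

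The motif counts asked a different question, namely how much of the open chromatin of a nucleus contains the sequence an EOMES or TBR1 protein could bind. Neither motif differed between CTX and GE by the test. The EOMES motif had 107 and 126 CPM of all motif counts in CTX, 103 and 77.7 in MGE, 136 and 120 in LGE, and 112 and 100 in CGE. LGE was highest and MGE replicate 2 lowest, and CTX lay within the GE range. The log2 fold of CTX against GE was 0.15 (SE 0.14, adjusted p = 0.587), and 0.26 without CTX replicate 1. MGE against LGE gave -0.54 (SE 0.17, unadjusted p = 0.0167, adjusted p = 0.740), in a comparison where 5.01% of motifs had an unadjusted p under 0.05.

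The TBR1 motif had 337 and 312 CPM in CTX, 347 and 292 in MGE, 266 and 275 in LGE, and 312 and 329 in CGE. LGE was lowest here, and the groups overlapped (CTX against GE, log2 fold 0.13, SE 0.08, adjusted p = 0.423, and 0.08 without CTX replicate 1). By edgeR none of the 579 motifs was called in any of the 4 comparisons, with 126 (21.8%) at an unadjusted p under 0.05 in CTX against GE, while DESeq2 called 90 (15.5%) there. Of 12 T-box motifs in the table, TBX20 and TBX21 had an unadjusted p under 0.05 in CTX against GE, with log2 folds of 0.46 (adjusted p = 0.0907) and 0.32 (adjusted p = 0.181). MGA, TBX1, TBX4, TBX5 and TBX15 held identical counts in every sample and are 1 measurement. The EOMES and TBR1 counts did differ, LGE being highest for the former and lowest for the latter. T-box proteins bind similar sequences, so a motif count does not tell which of them could bind.

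**Figure D5:**
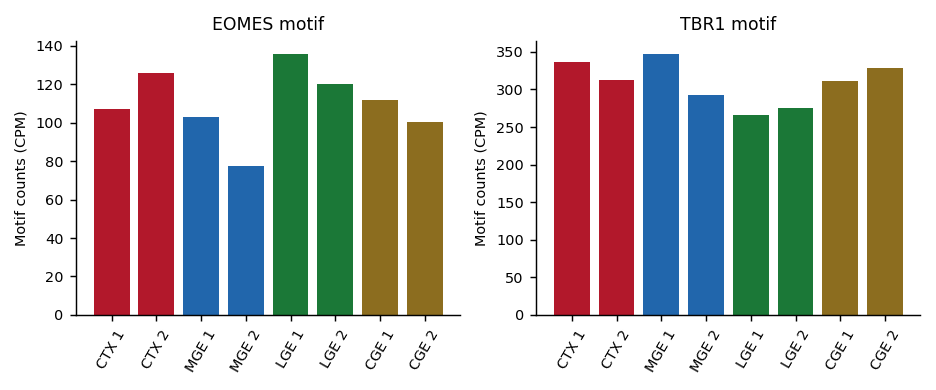
Counts of the EOMES motif (left) and of the TBR1 motif (right) in each of the 8 samples, numbered by replicate, as CPM of all motif counts, with 1 bar per sample starting at 0. The CTX bars lie within the range of the GE samples for both motifs.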

How the data were processed

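The authors deposited, per sample, a list of peaks with raw counts per peak and barcode and per motif and barcode, made with Cell Ranger ATAC 1.2.0 on GRCm38 (mm10) according to the submitters' processing notes. Peaks were called in each sample separately, and neither the barcode filter nor the aligner is given in the sources used here. The published text on this tissue describes RNA and not these libraries.

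Peaks overlapping by at least 1 bp were merged into 292532 regions, and counts were summed over the nuclei of each sample, the unit of replication. The gene models were GENCODE M21. Common regions, genes (peaks over the body or 2000 bp upstream) and motifs were tested with edgeR 4.0.16 (glmQLFit and glmQLFTest, TMM, filterByExpr) in R 4.3.3, in a single fit of 4 groups of 2 samples. The comparisons were CTX against the mean of MGE, LGE and CGE, and each pair of eminences, called where the p adjusted by Benjamini-Hochberg was at most 0.05. Log2 folds come from these fits. Alternatives used DESeq2 1.42.0 and the settings named in the closing section. On data simulated for CTX against GE, 45 of 57 regions and 45 of 51 genes raised 4-fold were recovered, as were 11 of 47 regions and 44 of 59 genes raised 2-fold. Lowered features were recovered less often, 22 of 46 regions and 36 of 43 genes at a fold of 0.25, and 3 of 50 regions and 26 of 47 genes at 0.5.

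Nuclei were clustered on 68268 regions, by 30 latent semantic indexing components, 20 neighbours and Leiden resolution 0.5 (leidenalg 0.10.2). No doublet caller was run; an alternative left out the 5% of nuclei with the most counts. A class name needed at least 3 raised markers, no fewer than for any other list, and a mean log2 difference over its list of at least 0.25 from the remaining nuclei; cluster 6, with 3 Glutamatergic-like markers raised, had a mean of 0.08 and stayed unnamed. Thinned shares are exact hypergeometric expectations at 5000 counts per nucleus, which leave out shallower nuclei.

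Elements were named if they lay over the start of a member, of Psmd14 or were called, if among the 3 highest of a locus away from gene starts, or among the 2 with the largest fold; tested elements were all described. From each list the called genes and the 2 of largest fold were named. The members, lists, class rule and tests were chosen with earlier results of these data known.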

Additional observations from a re-analysis of the deposited data

How the results depend on the processing

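Of 339 alternative values for 28 results, 289 kept direction and side of the threshold, 20 moved, 25 became weaker, 3 stronger and 2 reversed. The Eomes elements called in CTX against GE, 1 as reported, were 2 with DESeq2, 0 with the covered-length offset, 0 among 13 tested when regions with a peak in 2 or more samples entered, and 0 to 2 with a sample left out. The Tbr1 elements called, 1 as reported, were 0 to 2 with a sample left out, and 1, but another element, when regions with a peak in 2 or more samples entered. The log2 fold of Eomes at gene level was 1.2004 with the replicate block (adjusted p = 0.0823), 0.10 with the covered-length offset, 0.78 from peaks at start sites, and 0.77 to 1.498 with a sample left out. That of Tbr1 ranged from -0.07 to 0.84 with a sample left out and was reversed, at -0.0707, without CTX replicate 1. The whole element over Tbr1 was not reversed there, at 0.11. The share of nuclei differed by 7.09 to 12.7 points for Eomes and -2.21 to 10.997 for Tbr1 with a sample left out, reversed at -2.21 without CTX replicate 1; with 1 cortical sample the exact test cannot go below p = 0.143. The percent of Glutamatergic-like nuclei of CTX replicate 1 with a count was 51.7 for Eomes and 65.2 for Tbr1, against 55.2 and 71.3 at resolution 1.0, and 49.2 and 63.3 without the 5% deepest nuclei. The cause was not tested, except that the offset and the left-out samples change the length or the samples used by construction.

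Same-numbered samples of different regions had correlated deviations of -0.04 to 0.32 over regions, 0.03 to 0.28 over genes and -0.45 to 0.42 over motifs. The reported fits did not treat the numbers as pairs, although the share of odd entries followed the replicate number. With the replicate block, Eomes lost its gene-level call. The block changed no other call of the 24 results fitted with it. Among the listed genes, Tbx19, Lhx2, Sox5 and Slc17a6 lost their calls with it. Elements without a peak in a sample limit the tests, since accessibility below the peak threshold was not counted.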

Other observations

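Over the 8 samples, gene-level log2 CPM of Eomes and Tbr1 had a Pearson r of 0.78, and that of the EOMES and TBR1 motifs an r of -0.30. The samples share differences in depth and peak length, so both are descriptions. Among 14680 genes with a mean of 10 CPM or more, the 5 most like Eomes were Fank1 (r 0.97), Snx20, Ccdc60, Dnajc15 and Ankrd28 (r 0.95). Those most like Tbr1, among 14679, were Tyw1 (r 0.98), Nomo1, B3gntl1, Fdft1 and Nfyb (r 0.96). None belongs to the T-box or glutamatergic lists, and with 8 samples and as many genes, high values of r arise for many pairs.

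Of the other motifs, EMX2 (r 0.91), ISX, LHX9, Pax6 and FOXA1 (r 0.82) were most like EOMES, and GATA2 (r 0.92), TEAD1, NR1H2::RXRA, HOXA13 and HOXB13 (r 0.84) most like TBR1.

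In CTX replicate 1, nuclei with an Eomes count had a thinned Tbr1 share of 38.6% and those without one 35.0%. In CTX replicate 2 the values were 26.7 and 21.9%. Nuclei with an Eomes count were deeper, at medians of 33436.5 against 17837 counts in CTX replicate 1 and 18630 against 14754.5 in CTX replicate 2, and the part of depth in the remaining difference was not tested.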
